A study of Mus musculus with 123 samples.

Results

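The inner cell mass (ICM) of mouse blastocysts without Sox2 was followed from the early blastocyst, embryonic day E3.75, to the late blastocyst, E4.5. The members were taken by their labels: 8 early and 8 late ICMs of genotype Sox2_KO, 16 of the 123 samples of the series. Each sample was the ICM of 1 embryo, sequenced as 1 library in which unique molecular identifiers (UMIs) mark single captured RNA molecules. The embryos came from Sox2 flox/flox females carrying Zp3-Cre, a transgene that is active in the growing oocyte, mated with Sox2 +/EGFP males. A Sox2-KO embryo inherited the deleted maternal allele and the paternal EGFP allele, and was recognised by its fluorescence. Ctrl embryos of the same matings, 8 early and 8 late ICMs, also carried the deleted maternal allele and kept 1 intact paternal Sox2 allele, so that neither genotype had maternal Sox2. All embryos were on a B6C3F1 background by their label, and came from superovulated females. They were cultured in KSOM medium with 1 µM PD0325901, an inhibitor of the kinase MEK that suppresses primitive endoderm formation. The outer trophectoderm cells were then lysed by immunosurgery, which leaves the ICM. Late ICMs had therefore been in culture and in inhibitor for longer than early ICMs, and developmental stage and time in culture cannot be told apart. Mothers and litters were not labelled, so p-values measure the spread between single embryos.

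As background, Sox2 encodes a transcription factor that binds DNA together with Oct4, the product of Pou5f1, at many genes of pluripotent cells. Between the early and the late blastocyst, the ICM separates into the epiblast, which forms the embryo proper, and the primitive endoderm, which contributes to the yolk sac. Over the same period epiblast cells settle into the naive pluripotent state and start to produce signals such as Fgf4, to which primitive endoderm responds through the MEK pathway.

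The Sox2-KO ICMs held 605,931 to 1,029,244 UMIs and 12,140 to 13,671 detected genes per embryo. No pair of the compared libraries agreed within counting noise. Counts per 1e6 UMIs (CPM) below were scaled by the trimmed mean of M values (TMM). Sox2 itself had 176 UMIs over the 8 early and 108 over the 8 late KO ICMs, 23.2% (19.6 to 27.4%) and 9.70% (7.89 to 11.8%) of the depth-scaled level in Ctrl ICMs of the same stage, with exact Poisson 95% intervals that cover counting error only. The deleted segment ends within the 3′ untranslated region, and Sox2 lies inside Sox2ot on the same strand, so a 3′ tag outside the deletion can still be counted and is no full check of the genotype. Within the KO genotype, Sox2 did not pass the test between stages (log2 fold change -0.52 ± 0.36 SE, adjusted p = 0.476).

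The ICM label was checked against 3 marker lists of 10 genes each. The summed epiblast markers were at 1659 to 2257 CPM in early KO ICMs and at 1678 to 2738 CPM in late KO ICMs, and the ranges overlapped. The sum of 10 primitive endoderm markers was 591 to 947 CPM in early and 615 to 1083 CPM in late KO ICMs, and Foxa2 was at 0 in all early ones. Trophectoderm markers, from the cell type that immunosurgery removes, summed to 481 to 2101 CPM in early and to 601 to 1808 CPM in late KO ICMs. Their range thus overlapped between stages, with early embryo 11 far above the other early ones. Late ICMs carry labels in 2 sets of 4 embryos, by a first digit of 1 or 2 whose meaning is not given. Over the genes tested, the trophectoderm sum was 1003 to 1812 CPM in set 1 and 602 to 789 CPM in set 2, and the sets did not overlap. Set values are given beside named genes whose call in KO ICMs differs between the sets, and beside some list medians.

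The first question was what changed between the early and the late ICM when Sox2 was missing. Of 14,053 genes tested, 95 were called higher and 55 lower in late than in early KO ICMs, 150 in all, 1.07% of the genes tested (0.676% higher and 0.391% lower). A called gene had a Benjamini-Hochberg adjusted p below 0.05 in edgeR's quasi-likelihood test and a log2 fold change of 1 or more in either direction. Egr1, Fos, Txnip and Pou5f1 were among those that rose. Those that fell included the zinc finger gene Zbtb11, the glutathione genes Gsr and Gclm and the creatine kinase Ckb. Without the fold minimum, 632 genes passed, 271 higher and 361 lower. Of the 150 called genes 121 were protein coding, and 94 had a mean under 20 CPM at both stages, where few molecules stand behind a value. The early and late ranges did not overlap for 23 of the 150, of which 13 had at least 20 CPM. Genes without overlap were not counted over all genes tested, so this number has no background beside it. The median log2 fold change of all genes tested was 0.04.

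**Figure D1:**
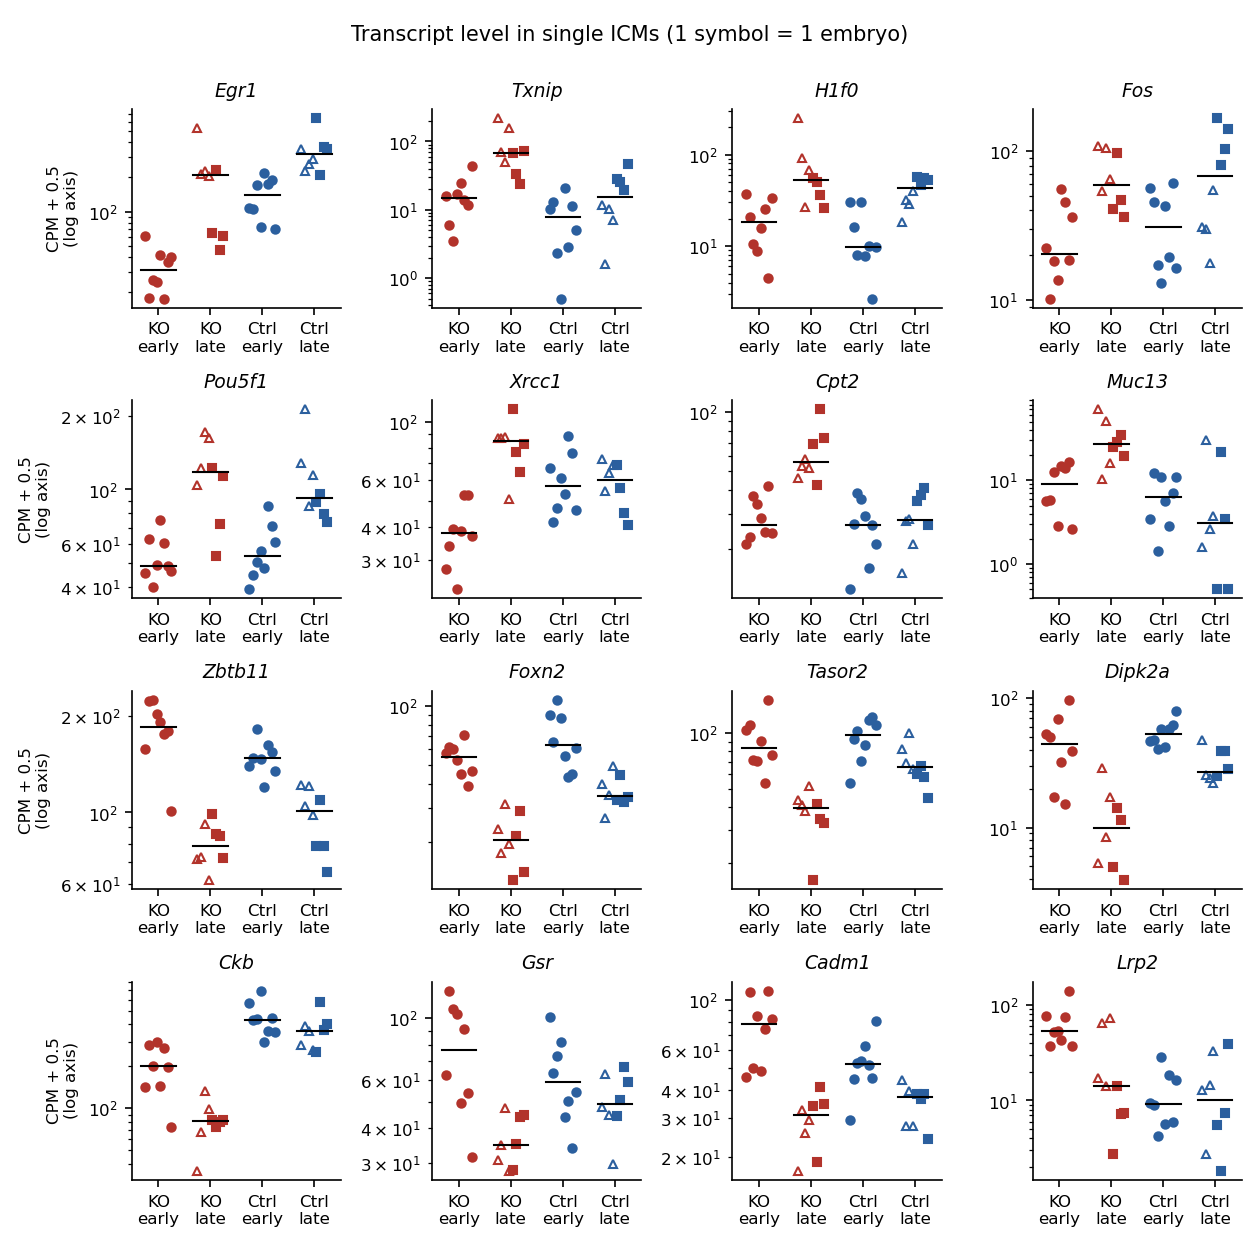
Levels of named genes in single ICMs, 1 panel per gene, on a logarithmic axis of CPM plus 0.5. Circles are early ICMs, open triangles late ICMs of set 1 and filled squares late ICMs of set 2, in red for Sox2-KO and blue for Ctrl, and lines mark medians. Zbtb11 fell from a median of 184 to 78.2 CPM in KO ICMs without overlap, while Egr1 rose from 30.5 to 207 CPM with overlap.

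Egr1 and Fos, immediate early genes that growth factor and stress signals switch on within minutes, rose in late KO ICMs. Egr1, a zinc finger transcription factor and a common readout of MAPK signalling, ran from 17.02 over a median of 30.5 to 60.6 CPM in early and from 46.2 over 207 to 531 CPM in late KO ICMs. All late embryos lay above the early median and 1 of them, 2-8, lay within the early range. The 4 late embryos of set 1 were at 203 to 531 CPM, while 3 of set 2 were at 46.2 to 64.7 CPM and the other at 230 CPM. The log2 fold change was 2.60 ± 0.36 (adjusted p = 7.4e-07), with 3.16 for late set 1 and 1.64 for set 2. Fos, a subunit of the AP-1 transcription factor, ran from 9.70 over 20.01 to 55.4 CPM in early and from 35.8 over 59.3 to 107 CPM in late KO ICMs. It rose by 1.35 ± 0.34 on the log2 scale (adjusted p = 0.00842), with 1.60 in set 1 and 1.01 in set 2. With set 2 alone, Fos did not pass (adjusted p = 0.12). Jun, the partner of Fos in AP-1, was outside the naming rule and was chosen after its values were seen. It rose from a median of 8.66 CPM (6.94 to 12.5) to 20.5 CPM (1.22 ± 0.38, adjusted p = 0.0472), with 7 late embryos above every early one and late embryo 2-3 below all of them at 3.34 CPM. It passed with neither late set alone (adjusted p = 0.0814 and 0.18). All embryos had been in MEK inhibitor, for longer at the late stage.

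Txnip had the second highest log2 fold change among the genes that the naming rule took (mean of at least 20 CPM and all late embryos on 1 side of the early median). Its product binds thioredoxin and limits glucose uptake, and its promoter is known to hold a pair of carbohydrate response elements that respond to glucose through the factors ChREBP and MondoA. Txnip ran from 2.97 over 14.5 to 43.0 CPM in early and from 23.1 over 68.3 to 217 CPM in late KO ICMs, with overlapping ranges. It rose by 2.39 ± 0.41 (adjusted p = 6.5e-05), by 2.89 in set 1 and by 1.54 in set 2. Without early embryo 11 and late embryos 1-1 and 1-6, the KO ICMs highest in trophectoderm markers, it rose by 1.63 (adjusted p = 0.018). In Ctrl ICMs, Txnip was at 7.85 ± 6.94 CPM (SD, n = 8) early and 18.3 ± 14.5 CPM late. The genotype difference of the stage change was 1.18 ± 0.63 (adjusted p = 0.509), and its sign differed between the late sets, at 2.99 (adjusted p = 0.0961) with set 1 and -0.34 (adjusted p = 0.915) with set 2. The Ctrl change was -0.11 with set 1 and 1.89 (adjusted p = 0.00872) with set 2.

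The promoter of Txnip is shown because it holds this known pair, together with 3 promoters of other stage-changed genes. Each sequence is the 250 bases before the RefSeq start site (GRCm38.p6), 5′ to 3′ on the gene's own strand, with the motif in capitals. Txnip (chr3:96557707-96557956, plus strand) held 2 copies of CACGNG with 5 bases between them, from 85 to 69 bases before the start. Fnip1 (chr11:54437929-54438178, plus strand) held it on the opposite strand, 156 to 140 bases before the start. The pair stood in 0.0457% of 32,851 promoter windows on either strand. Fos (chr12:85473640-85473889, plus strand) held the core TGACGT of the cyclic AMP response element, present in 6.47% of windows. Jun (chr4:95052223-95052472, minus strand) held the AP-1-like motif TGACNTCA, present in 7.49% of windows. A match says only that these letters are there.
Txnip: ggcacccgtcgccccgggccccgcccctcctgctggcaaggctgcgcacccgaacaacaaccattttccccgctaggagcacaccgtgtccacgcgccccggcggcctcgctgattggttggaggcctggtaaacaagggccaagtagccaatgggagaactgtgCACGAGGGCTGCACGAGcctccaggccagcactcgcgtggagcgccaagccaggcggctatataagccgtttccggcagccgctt
Fnip1: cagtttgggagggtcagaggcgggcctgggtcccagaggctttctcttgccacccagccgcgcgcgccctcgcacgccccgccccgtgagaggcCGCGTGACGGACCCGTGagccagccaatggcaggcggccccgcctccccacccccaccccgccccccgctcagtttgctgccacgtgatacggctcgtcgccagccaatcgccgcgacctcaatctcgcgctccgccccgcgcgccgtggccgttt
Fos: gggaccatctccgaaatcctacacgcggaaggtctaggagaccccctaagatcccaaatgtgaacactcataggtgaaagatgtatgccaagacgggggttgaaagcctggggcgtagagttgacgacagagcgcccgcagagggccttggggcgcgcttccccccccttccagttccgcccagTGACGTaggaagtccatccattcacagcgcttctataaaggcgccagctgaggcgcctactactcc
Jun: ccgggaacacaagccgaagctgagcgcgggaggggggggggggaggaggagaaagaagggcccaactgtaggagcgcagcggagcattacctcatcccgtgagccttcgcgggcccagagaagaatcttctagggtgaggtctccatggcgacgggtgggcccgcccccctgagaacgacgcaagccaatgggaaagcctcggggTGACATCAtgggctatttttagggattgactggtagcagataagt

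Fnip1, which encodes a partner of folliculin in nutrient sensing at the lysosome, fell in late KO ICMs. Its early values were 41.3 to 107 CPM with a median of 82.7, and its late values 17.8 to 55.5 CPM with a median of 41.1, overlapping. The log2 fold change was -1.05 ± 0.20 (adjusted p = 3.0e-04), -0.73 in set 1 and -1.51 in set 2. The gene with the same paired motif as Txnip thus moved the other way. Its fold change no longer reached -1 when early embryo 2 or 11 or late embryo 2-3 or 2-8 was left out, and was then between -1 and -0.94.

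Pou5f1, the gene of the pluripotency factor Oct4 and the DNA-binding partner of Sox2, rose in the absence of Sox2. It ran from 39.7 over 48.5 to 75.0 CPM in early and from 53.2 over 117 to 170 CPM in late KO ICMs, with all late embryos above the early median. The log2 fold change was 1.11 ± 0.19 (adjusted p = 9.0e-05), with 1.38 in set 1 and 0.74 in set 2. In Ctrl ICMs it was 0.95 ± 0.19 (adjusted p = 5.9e-04), and the genotype difference did not pass (0.16 ± 0.27, adjusted p = 0.896). In the Ctrl ICMs of the Oct4 line, which carry a deleted maternal Pou5f1 allele, it was at -0.81 ± 0.20 (adjusted p = 9.98e-04), the opposite sign. Gm19553 overlaps Pou5f1 on the other strand, and whether strand was used in counting is not given.

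The other named genes that rose included Xrcc1, Cpt2, Mocs3 and H1f0. Xrcc1, the scaffold of single-strand break repair, went from a median of 37.3 CPM (22.6 to 52.3) to 84.3 CPM (50.3 to 112), a log2 fold change of 1.09 ± 0.18 (adjusted p = 2.4e-05). Only the lowest late embryo fell within the early range. Cpt2, which completes the entry of long-chain fatty acids into mitochondria, was at 20.6 to 41.2 CPM early and 42.1 to 103 CPM late, without overlap (1.09 ± 0.24, adjusted p = 0.00252). Mocs3, an enzyme of molybdenum cofactor synthesis and tRNA thiolation, was at 5.43 to 23.8 CPM early and 28.6 to 50.2 CPM late, also without overlap (1.06, adjusted p = 4.6e-04). H1f0, a linker histone linked to differentiation, rose by 1.99 ± 0.37 (adjusted p = 2.1e-04), and late embryo 1-1 stood apart at 247 CPM. Without that embryo the call for H1f0 held (lowest log2 fold change on leaving out any 1 embryo 1.40), but it differed between the late sets, at 2.50 (adjusted p = 4.1e-05) in set 1 and 1.14 (adjusted p = 0.111) in set 2. Cpt2 passed with set 2 alone (1.29, adjusted p = 0.00376) and not with set 1 alone (0.83, adjusted p = 0.109).

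Some calls rested on single embryos. The fold change of Cpt2 fell under 1 without late embryo 2-8 (0.94), and that of Mocs3 without early embryo 10 or 17 or late embryo 1-3 (lowest 0.91). Zfp821, a zinc finger gene (1.03, adjusted p = 0.00989), lost its call without early embryo 1, 5, 17 or 21 or late embryo 1-1, down to 0.78, and with late set 2 alone (0.74, adjusted p = 0.201, against 1.25 in set 1). The weakest were Muc13, a transmembrane mucin (1.80, adjusted p = 0.0278), Trim26, a ubiquitin ligase (1.09, adjusted p = 0.0388), and Sp110, a nuclear body protein (1.495, adjusted p = 0.0457). On leaving out 1 embryo in turn, Muc13 lost its call in 6, Trim26 in 9 and Sp110 in 11 of the 16 cases, with adjusted p up to 0.0997, 0.109 and 0.221. Sp110 stood at 79.5 CPM in late embryo 1-3 and at 29.9 CPM in the next. Sp110 and Trim26 passed with neither late set alone, and Muc13 with set 1 (2.00) and not with set 2 (1.55, adjusted p = 0.146). Without the 3 KO embryos highest in trophectoderm markers, neither Muc13 (1.73, adjusted p = 0.0755) nor Trim26 (0.695, adjusted p = 0.325) was called. Sp110 kept its call there (2.00, adjusted p = 0.0183).

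Zbtb11, Tasor2, Foxn2 and Zfp820, which encode chromatin or DNA-binding proteins, fell in late KO ICMs. Zbtb11, a zinc finger transcription factor, had the lowest p of all named genes: 101 over 184 to 223 CPM in early and 61.1 over 78.2 to 98.1 CPM in late KO ICMs. The 2 ranges did not overlap, and the log2 fold change was -1.19 ± 0.15 (adjusted p = 6.4e-08), -1.30 in set 1 and -1.10 in set 2. Gm28037 overlaps it on the same strand, and Pcnp and Zbtb11os1 on the other. Tasor2, a relative of the HUSH silencing subunit TASOR, was at 53.3 to 151 CPM early and 15.6 to 51.5 CPM late (-1.29 ± 0.20, adjusted p = 1.6e-05). Foxn2, a forkhead factor, was at 38.2 to 70.3 CPM early and 12.3 to 30.9 CPM late (-1.36 ± 0.20, adjusted p = 2.2e-06). Early and late values of Tasor2 and of Foxn2 did not overlap, and both genes fell in each late set, by 1.08 and 1.58 for Tasor2 and by 1.25 and 1.51 for Foxn2 on the log2 scale. Zfp820, a zinc finger gene, fell by 1.62 (adjusted p = 3.9e-04) with overlap, by 2.06 in set 1 and at -1.28 in set 2, where it did not pass (adjusted p = 0.0512).

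The other named genes that fell included enzymes and membrane proteins. Ckb, the brain-type creatine kinase that buffers ATP, ran from 73.0 over 199 to 298 CPM in early and from 35.0 over 80.3 to 133 CPM in late KO ICMs (-1.31 ± 0.22, adjusted p = 5.1e-05). It fell in both late sets, by 1.28 and 1.36. In Ctrl ICMs its medians were 433 CPM early and 360 CPM late, above every KO embryo. Dipk2a, a divergent protein kinase gene, had the lowest fold change of the named genes, from a median of 44.1 to 9.44 CPM (-2.01 ± 0.38, adjusted p = 2.7e-04). Cadm1, a cell adhesion molecule of the immunoglobulin family, was at 45.1 to 110 CPM early and 16.9 to 40.8 CPM late, without overlap (-1.39, adjusted p = 0.00239). It was at -1.56 in set 1 and at -1.26 in set 2, where it did not pass (adjusted p = 0.0641). Lysmd3, a Golgi membrane protein, also did not overlap between stages (36.3 to 61.5 CPM early, 14.9 to 35.4 CPM late, -1.17, adjusted p = 0.00128). Man2a1, a Golgi mannosidase of N-glycan processing (-1.21, adjusted p = 0.0189), lost its call without late embryo 2-3 (adjusted p = 0.0509) and with set 1 alone (adjusted p = 0.202, against 0.0434 in set 2).

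Another 3 named genes that fell had weaker support. Grin1, a subunit of the NMDA receptor, had a log2 fold change of -1.76 (adjusted p = 0.0379) and lost its call in 8 of 16 cases of leaving out 1 embryo (adjusted p up to 0.0999). Nlrp4c, of an oocyte-expressed family of NLR proteins with near-identical members (-1.27, adjusted p = 0.0233), lost it without early embryo 2, 5 or 8 (up to 0.0831). The mitochondrial isoleucine tRNA gene mt-Ti (-1.18, adjusted p = 0.0249) overlaps mt-Nd1 and mt-Tq, and lost it without early embryo 5 or late embryo 1-6 or 2-3 (up to 0.0535). None of these 3 passed with either late set alone or without the 3 KO embryos highest in trophectoderm markers. Without those embryos Grin1 was at -1.40 (adjusted p = 0.192), Nlrp4c at -1.25 (adjusted p = 0.0703) and mt-Ti at -1.21 (adjusted p = 0.0558). With sets 1 and 2 alone, Grin1 was at -2.15 and -1.45, Nlrp4c at -1.30 and -1.26 and mt-Ti at -0.99 and -1.43. Beside mt-Ti, 6 of 13 mitochondrially encoded proteins passed the adjusted p with lower late values but none reached the fold minimum, beside 2.57% of all genes that passed lower, for example mt-Nd2 at -0.85 ± 0.15 (adjusted p = 8.8e-05). The share of UMIs from mitochondrial genes was 3.96 to 5.70% in early and 2.95 to 4.01% in late KO ICMs.

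The pathways of the ICM were then read by lists of genes, of which 35 were counted. In most, no member was called in KO ICMs. Of 32 naive pluripotency genes tested, 0 were called in the edgeR test and 4 higher and 4 lower had an unadjusted p below 0.05, as did 18.1% of all genes (2548), with a median log2 fold change of 0.13 beside 0.04 over all genes. With late set 1 alone the median of the list was -0.05, and with set 2 alone 0.09. Dppa5a, a marker of naive cells (0.81 ± 0.17, adjusted p = 0.00113), and Utf1, a chromatin factor of pluripotent cells (-0.94 ± 0.22, adjusted p = 0.00345), passed the adjusted p alone. Nanog was at 840 ± 124 CPM (SD, n = 8) in early and 1001 ± 247 CPM in late KO ICMs, a log2 fold change of 0.25 ± 0.23 (adjusted p = 0.608). Klf4 (-0.60 ± 0.24, adjusted p = 0.134), Fgf4 (0.07 ± 0.39, adjusted p = 0.967) and Esrrb (0.25 ± 0.22, adjusted p = 0.604) did not pass either. Of 15 formative and primed epiblast genes and 16 LIF and STAT3 genes, 0 passed the adjusted p, and 2 of each had an unadjusted p below 0.05, all higher.

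The list of FGF and MAPK feedback genes had 3 of 21 called higher, beside 0.676% of all genes, and 0 lower. They were Egr1, Fos and Fgf10, a ligand at a mean of 1.48 CPM early and 7.93 CPM late (2.43, adjusted p = 0.0278), which passed with late set 2 alone (2.73, adjusted p = 0.0311) and not with set 1 (2.06, adjusted p = 0.152). Of its feedback inhibitors Spred2 passed the adjusted p, lower in late ICMs and under the fold minimum (-0.67 ± 0.16, adjusted p = 0.00399). Dusp6, Spry2 and Spry4 did not pass: Dusp6 was at -0.15 ± 0.35 (adjusted p = 0.875), Spry2 at -0.42 ± 0.18 (adjusted p = 0.18) and Spry4 at 1.11 ± 0.62 (adjusted p = 0.344). The median of the list was 0.22, and 6 higher and 4 lower members had an unadjusted p below 0.05, beside 9.29% and 8.85% of all genes. That median was 0.38 with late set 1 alone and -0.09 with set 2 alone. Without the KO embryos highest in trophectoderm markers it was 0.01. Among BMP genes 1 of 15 was called, the BMP antagonist Nog, at means of 0.266 and 3.58 CPM (3.06, adjusted p = 0.02). Nog passed with set 2 alone (3.53, adjusted p = 0.0224) and not with set 1 (2.42, adjusted p = 0.207).

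Few amino acid and redox genes were called. Of 29 genes of the integrated stress response and amino acid synthesis, 2 were called higher, beside 0.676% of all genes: Slc7a5, the large neutral amino acid transporter (1.11 ± 0.31, adjusted p = 0.0206), and Atf5, a stress-induced transcription factor at 3.77 CPM early and 11.8 CPM late (1.66, adjusted p = 0.0103). Atf5 passed with set 1 alone (1.79, adjusted p = 0.0228) and not with set 2 (1.49, adjusted p = 0.0801). The list's median was 0.51, and 8 higher and 0 lower members had an unadjusted p below 0.05, beside 9.29% and 8.85% of all genes. Slc7a5 differed between late sets, at 0.36 (adjusted p = 0.679) in set 1 and 1.59 (adjusted p = 0.00146) in set 2, and lost its call without early embryo 5 or late embryo 2-3 or 2-6, down to 0.77. Of 21 glutathione and redox genes 2 were called lower, beside 0.391% of all genes. Gsr, glutathione reductase, fell from a median of 76.3 to 34.5 CPM (-1.11 ± 0.19, adjusted p = 9.0e-05), by 1.17 in set 1 and 1.07 in set 2, and on leaving out 1 embryo the fold change stopped short of -1 without early embryo 2 alone (-0.99). Gclm, the modifier subunit of the enzyme that starts glutathione synthesis, fell by 1.09 (adjusted p = 0.0318) and lost its call in 8 of 16 cases of leaving out 1 embryo (adjusted p up to 0.147). It was at -1.51 (adjusted p = 0.0302) in set 1 and -0.76 (adjusted p = 0.325) in set 2. Without the 3 KO embryos highest in trophectoderm markers neither gene was called, with Gsr at -0.98 (adjusted p = 0.0034) and Gclm at -0.84 (adjusted p = 0.205).

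Lineage markers gave single calls in both directions. Cdx2, the trophectoderm transcription factor, had medians of 16.0 CPM early and 29.4 CPM late (1.16 ± 0.35, adjusted p = 0.0355), with 1.72 in set 1 and 0.13 in set 2. Lrp2, an endocytic receptor on the trophectoderm list, had medians of 52.5 and 13.7 CPM (-1.35 ± 0.42, adjusted p = 0.0448), with -0.63 in set 1 and -3.12 in set 2. In set 1 the trophectoderm sum was higher than in set 2. Without early embryo 11 and late embryos 1-1 and 1-6, the 3 KO ICMs whose sum was over 1500 CPM, Cdx2 was at 0.83 (adjusted p = 0.241) and Lrp2 at -1.77 (adjusted p = 0.0172). Leaving out 1 embryo ended the call of Cdx2 in 8 and that of Lrp2 in 10 of 16 cases (adjusted p up to 0.12 and 0.143). They were the 2 calls among 24 trophectoderm genes, beside 0.676% of all genes called higher and 0.391% lower. Among 16 primitive endoderm genes, Cited1, a transcriptional co-regulator, fell (-1.497 ± 0.37, adjusted p = 0.00835), with -1.45 (adjusted p = 0.0885) in set 1 and -1.57 (adjusted p = 0.0464) in set 2, and -1.04 (adjusted p = 0.148) without the 3 embryos. Lama1, a laminin of the basement membrane, was called higher (2.52, adjusted p = 0.0278), but late embryo 2-6 alone stood at 199 CPM, and without it the log2 fold change was 0.93 (adjusted p = 0.585). With set 1 alone Lama1 was at 1.20 (adjusted p = 0.475), and with set 2, which holds that embryo, at 3.21 (adjusted p = 0.00496). Gata4 had a log2 fold change of 2.12 ± 0.75 (adjusted p = 0.0847), and Sox17 of 1.20 ± 0.66 (adjusted p = 0.331).

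Other lists had at most 1 call. Cldn7, a tight junction claudin, rose from a median of 112 to 222 CPM (1.08 ± 0.25, adjusted p = 0.00355), with 1.38 in set 1 and 0.66 in set 2, and stopped short of 1 without early embryo 8 or 21 or late embryo 1-1 or 1-5 (down to 0.96). Impact, an imprinted gene whose product restrains the stress kinase GCN2, was the 1 call among 18 imprinted genes (-1.22 ± 0.34, adjusted p = 0.02) and lost it without early embryo 2, 8 or 11 or late embryo 1-6 (adjusted p up to 0.0783), and with set 1 alone (-0.93, adjusted p = 0.255, against -1.64 in set 2), and without the 3 embryos highest in trophectoderm markers (adjusted p = 0.104). Of 82 nuclear genes of oxidative phosphorylation 1 was called, Cox6a2, at means of 0.58 and 7.51 CPM (3.51, adjusted p = 0.00452), with 4.21 (adjusted p = 0.0017) in set 1 and an adjusted p of 0.313 in set 2. On that list 8 higher and 1 lower passed the adjusted p, and 24 higher and 2 lower had an unadjusted p below 0.05. Of 78 cytosolic ribosomal protein genes 0 were called, 11 higher and 1 lower passed the adjusted p, and 23 higher and 3 lower had an unadjusted p below 0.05. Of all genes 0.676% were called higher. The adjusted p was passed by 1.93% higher and 2.57% lower, and the unadjusted one by 9.29% and 8.85%. Glycolysis, cholesterol and fatty acid synthesis, p53 targets, the BCL2 family, cyclins, the Polycomb complexes and DNA methylation had 0 calls each in edgeR. Of 28 Polycomb genes 5 higher and 10 lower had an unadjusted p below 0.05, beside the 18.1% of all genes, and of 38 proteasome genes, also without a call, 1 higher and 9 lower.

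**Figure D2:**
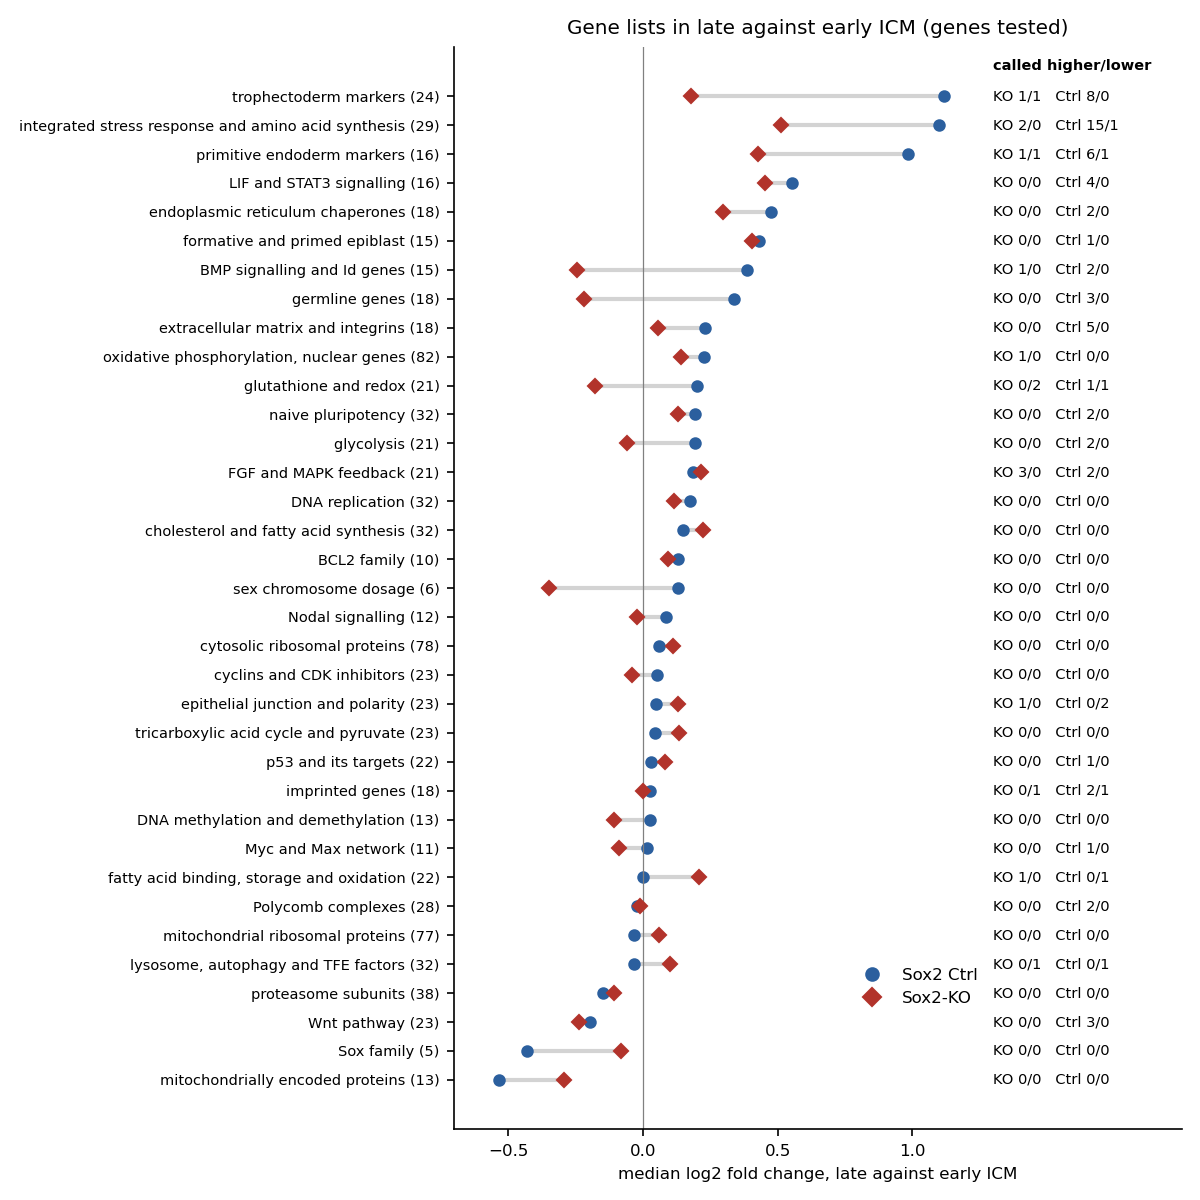
Late against early log2 fold changes by gene list, with the median over tested members for Sox2-KO in red and Ctrl in blue, and the numbers called higher and lower of those tested at the right. The integrated stress response list had a median of 0.51 with 2 called in KO ICMs and of 1.10 with 15 higher and 1 lower in Ctrl ICMs.

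The second question was whether the same stage change was seen in Ctrl ICMs, which share no embryo with the KO groups. In the same test 407 genes were called in Ctrl ICMs, 2.90% of those tested, with 272 higher (1.94%) and 135 lower (0.961%). Without the 5 Sox2-line ICMs whose trophectoderm markers summed to over 1500 CPM (early KO embryo 11, late KO embryos 1-1 and 1-6, late Ctrl embryos 1-10 and 2-6), 132 genes were called in KO and 162 in Ctrl ICMs. With late set 1 alone the counts were 124 and 170, and with set 2 alone 143 and 538. The KO and Ctrl calls had 21 genes in common, all in the same direction, which was 14% of the KO calls and 5.16% of the Ctrl calls. They included the immediate early genes Egr1 and Fos, Atf5 and Slc7a5 of the stress response list, Gclm, H1f0, Grin1, Cited1 and Lama1. In Ctrl ICMs, Egr1, Fos, H1f0, Slc7a5 and Lama1 passed with late set 2 alone and not with set 1 alone. Gclm passed there with set 1 and not with set 2, Cited1 with each and Grin1 with neither. The Ctrl change of Fos was -0.01 with set 1 (adjusted p = 0.996) and 1.86 with set 2 (adjusted p = 1.65e-04). A gene called in 1 genotype alone is not thereby shown to differ: of the 150 KO calls 1 and of the 407 Ctrl calls 2 passed the test of the genotype difference.

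**Figure D3:**
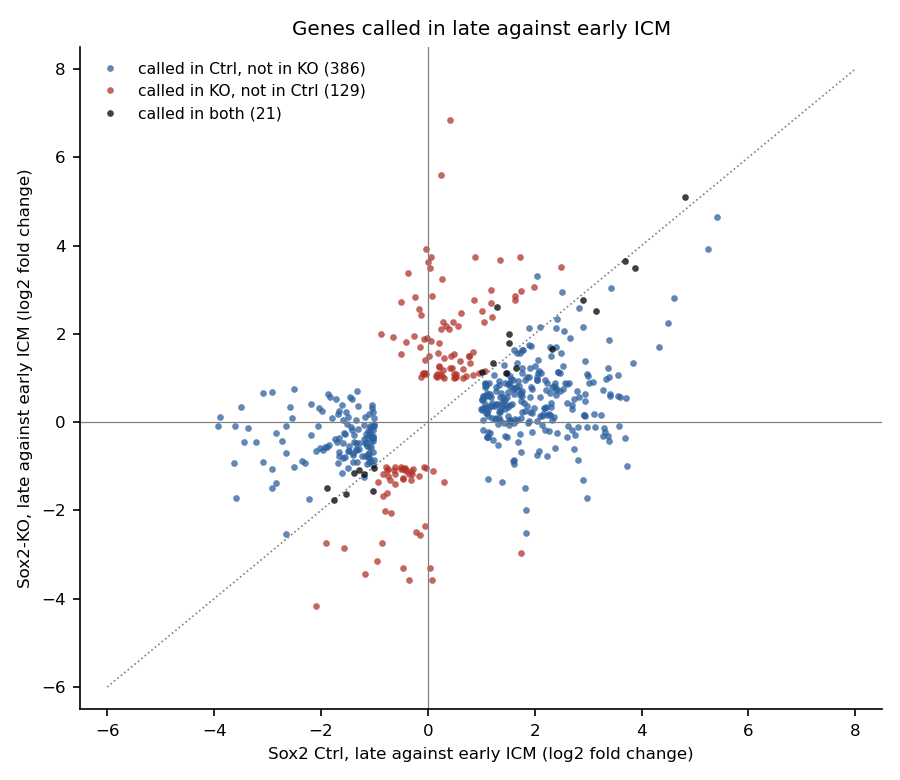
Log2 fold changes of late against early ICM for the genes called in either genotype, Ctrl on the horizontal and Sox2-KO on the vertical axis. Red points are genes called in KO ICMs alone, blue points in Ctrl ICMs alone and black points in both, and the 21 called in both all have the same sign on both axes.

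Several lists with calls in Ctrl ICMs had fewer in KO ICMs. In the integrated stress response list 15 of 29 genes rose in Ctrl ICMs and 2 in KO ICMs, with medians of 1.10 and 0.51, where 1.94% and 0.676% of all genes were called higher. These shares are the background of the counts below that use all embryos. For the other fits, the totals called in each genotype are those given above. Of 24 trophectoderm genes, 8 rose in Ctrl and 1 in KO ICMs (medians 1.12 and 0.18), and the trophectoderm sum of Ctrl ICMs was 127 to 557 CPM early, and late 2812 CPM in embryo 1-10, 1794 CPM in embryo 2-6 and 217 to 926 CPM in the other 6. Without the 5 trophectoderm-high embryos 1 trophectoderm gene rose in Ctrl and 0 in KO ICMs (medians 0.50 and 0.43). With late set 1 alone 6 rose in Ctrl and 2 in KO ICMs (medians 1.22 and 0.29), and with set 2 alone 5 and 0 (medians 0.86 and -0.28). Primitive endoderm genes had 6 of 16 higher in Ctrl and 1 in KO ICMs, LIF and STAT3 genes 4 of 16 and 0, and extracellular matrix genes 5 of 18 and 0. Without the same 5 embryos the Ctrl counts of higher genes were 10 for the stress response, 1 for primitive endoderm, 4 for LIF and STAT3 and 0 for extracellular matrix genes, and the KO counts 2, 1, 0 and 0. With late set 1 alone the Ctrl counts in this order were 3, 1, 1 and 1, and the KO counts 2, 0, 0 and 0. With set 2 alone the Ctrl counts were 18, 7, 4 and 5, and the KO counts 1, 1, 0 and 0. Socs3, the feedback inhibitor of STAT3 signalling, was at 2.48 ± 0.59 in Ctrl (adjusted p = 0.00424) and at 0.70 ± 0.79 in KO ICMs (adjusted p = 0.707). No gene of any list passed the test of the genotype difference, and the difference between the lists' medians was not tested.

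To place the KO ICMs on a scale from the contrast of other embryos, stage genes were called in Ctrl embryos of the Oct4 line (late against early ICM, 8 each). These came from Pou5f1 flox/flox; Zp3-Cre females and Pou5f1 +/mKO2 males, carried 1 intact paternal Pou5f1 allele, had intact Sox2 and were cultured in the same inhibitor. The KO ICMs entered this call only through the common gene filter, the scaling and the shared estimate of spread. There were 2187 stage genes, 15.6% of the genes tested, 1338 higher and 849 lower in the late ICM. Of these, 31 were called in KO ICMs in the same direction and 9 in the opposite one. By direction, 22 of the 1338 higher stage genes rose in KO ICMs (1.64%, beside 0.676% of all genes tested), and 9 of the 849 lower ones fell (1.06%, beside 0.391%). Ctrl ICMs of the Sox2 line had 226 in the same direction and 5 in the opposite one. Of the higher stage genes 12.2% rose there, beside 1.94% of all genes tested, and of the lower ones 7.42% fell, beside 0.961%. The stage genes higher in late Oct4 Ctrl ICMs moved by a median of 0.18 in KO and 0.46 in Ctrl ICMs on the log2 scale, and those lower had medians of 0.02 and -0.35. The count of 31 varied from 18 to 34 on leaving out 1 embryo, and was 20, 19, 20 and 18 without early embryo 8, early embryo 11, late embryo 1-1 and late embryo 2-6. It was 24 with late set 1 alone, 12 with set 2 alone and 14 without the 5 trophectoderm-high embryos. In each of these fits the stage genes were called anew.

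A stage score was taken for each embryo as the mean log2 CPM of the stage genes higher in late ICMs minus that of the lower ones, centred on the Oct4 Ctrl ICMs. Early KO ICMs had a score of -0.096 ± 0.162 (SD, n = 8), from -0.302 to 0.0954. Late KO ICMs had a score of 0.0722 ± 0.267, from -0.211 to 0.553. The 2 stages overlapped in KO ICMs, with a shift of 0.168. In Ctrl ICMs the score was 0.0663 ± 0.415 early and 0.761 ± 0.234 late, a shift of 0.695, also with overlap. Oct4 Ctrl ICMs, from which the genes were chosen, were at -1.21 ± 0.335 and 1.21 ± 0.251. Late KO ICMs of set 1 scored -0.072 to 0.330 and those of set 2 -0.211 to 0.553, so that both sets spanned the early KO range in part.

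**Figure D4:**
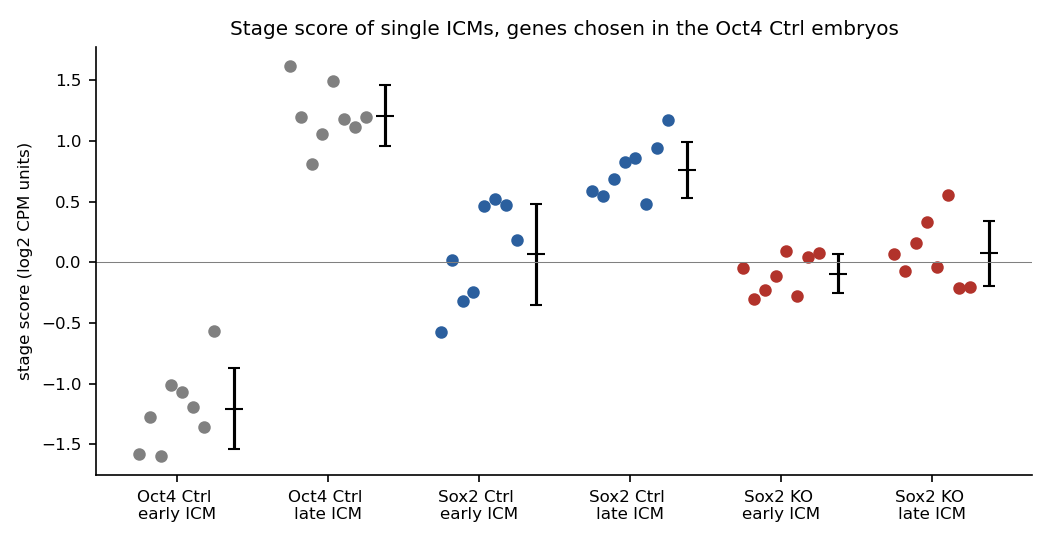
Stage score of single ICMs by group, in log2 units, with mean ± SD beside the points. Early and late Sox2-KO ICMs overlap around 0, late Ctrl ICMs lie between 0.477 and 1.18, and the Oct4 Ctrl ICMs that supplied the genes lie apart at -1.21 and 1.21.

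Last, the stage change was compared between genotypes gene by gene, as the KO minus Ctrl difference of the late against early log2 fold change. Of 14,053 genes, 6 were called, 0.0427%, all at an adjusted p of 0.0394, and 1494 had an unadjusted p below 0.05. Pemt, which makes phosphatidylcholine from phosphatidylethanolamine, had the highest difference (2.02). In KO ICMs it ran from 111 over a median of 178 to 394 CPM early and from 82.9 over 308 to 558 CPM late, and in Ctrl ICMs the median went from 183 to 76.8 CPM. Gpd1l, a relative of glycerol-3-phosphate dehydrogenase, differed by 2.00, with log2 fold changes of 0.40 in KO and -1.60 in Ctrl ICMs. In early Ctrl ICMs its values reached 1070 CPM with a median of 172.

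Ankzf1, a factor that releases stalled peptides from ribosomes, had medians of 17.8 CPM early and 26.9 CPM late in KO ICMs, and of 22.5 and 9.20 CPM in Ctrl ICMs (difference 1.94). It overlaps Atg9a and Glb1l on the other strand. Gemin5, which recognises snRNAs for the SMN complex, moved from 59.9 to 89.9 CPM in KO and from 111 to 85.0 CPM in Ctrl ICMs (difference 1.18). Xrcc1, named above, rose in KO ICMs, and its Ctrl medians were 56.6 and 59.7 CPM (difference 1.12). With late set 1 alone its difference was 0.89 (adjusted p = 0.318) and with set 2 alone 1.33 (adjusted p = 0.0305), while the other 5 passed with neither set alone. Rbbp5, a core subunit of complexes that methylate histone H3 at lysine 4, went from 42.3 to 33.8 CPM in KO and from 44.4 to 69.1 CPM in Ctrl ICMs (difference -1.05).

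These 6 calls were fragile. None was left without early KO embryo 1, 5, 8, 10 or 17 or late KO embryo 1-1, 1-3, 1-5 or 2-3, each left out in turn, and the count ran from 0 to 12 over all 16 cases. The unadjusted p was below 0.05 for 1346 to 1605 genes in those fits. DESeq2 called 41 genes on the same counts, all 6 among them.

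**Figure D5:**
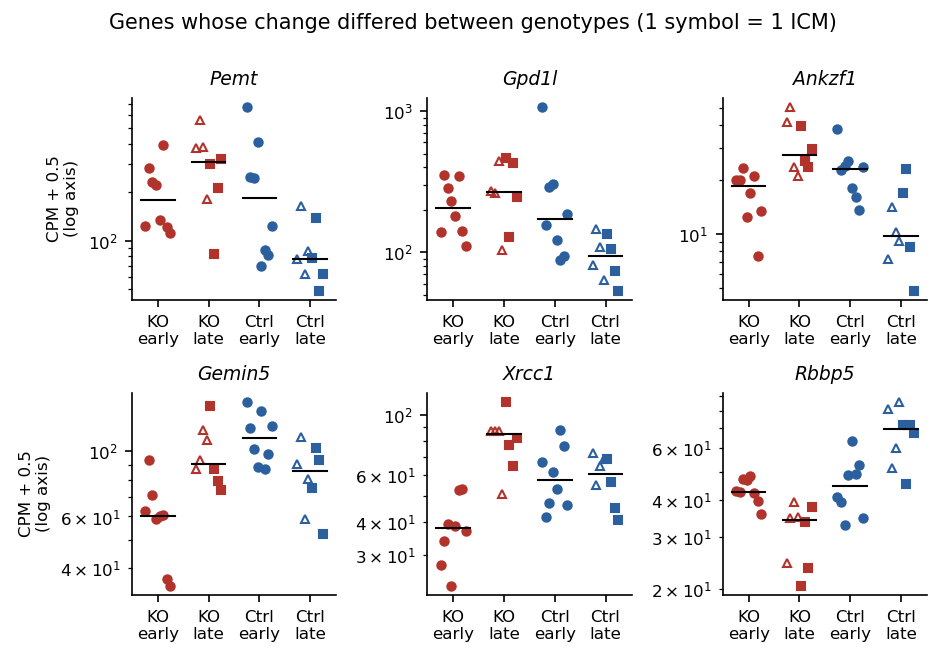
Levels of the 6 genes whose stage change differed between genotypes, in single ICMs on a logarithmic axis of CPM plus 0.5. Circles are early ICMs, open triangles late set 1 and filled squares late set 2, red for Sox2-KO and blue for Ctrl, and lines mark medians. Ankzf1 and Gemin5 have higher medians in late than in early KO ICMs and lower ones in late than in early Ctrl ICMs.

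The calls also depended on which late set was used. With set 1 alone 124 genes were called in KO ICMs, 83 higher and 41 lower, and with set 2 alone 143, with 58 higher and 85 lower. Both counts use the same 8 early ICMs. Fewer late embryos also enter each. The sets had 18 calls in common, 14.5% of the set 1 calls and 12.6% of the set 2 calls. Among them were Egr1, Txnip, Xrcc1 and Mocs3, which rose, and Zbtb11, Tasor2, Foxn2, Ckb, Gsr, Dipk2a and Lysmd3, which fell.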

How the data were processed

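Single ICMs were profiled by 3′ RNA-seq with UMIs. The authors extracted UMIs with UMI-tools, trimmed reads with Cutadapt, aligned them with TopHat2 to mm10, assigned them to GENCODE genes with featureCounts and corrected molecule numbers with TRUmiCount. The deposited counts are whole UMIs per gene for 29,022 genes, and whether strand was used is not given. The deposited log2 values are regularised log (rlog) values from DESeq2 for 15,747 genes, used here only in an alternative. Columns for other samples of the series entered as described next or were not used here.

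From the counts, edgeR 4.0.16 (R 4.3.3) fitted the quasi-likelihood model to 96 Ctrl and KO embryos in 12 groups, with TMM factors and 1 shared spread. Testing was limited to 14,053 genes that had a UMI in a share of 0.5 or more of the embryos at 1 or more stages, which keeps genes present at 1 stage alone. The contrasts were late against early ICM in Sox2-KO, Sox2 Ctrl and Oct4 Ctrl embryos, and the KO minus Ctrl difference. The SE is the log2 fold change over the square root of F. Each KO ICM had 605,931 to 1,029,244 UMIs, so that 20 CPM stands for about 12 to 21 UMIs.

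Genes were named by rule: Sox2 and Pou5f1, the 12 highest and 12 lowest called log2 fold changes with a mean of at least 20 CPM and all 8 late embryos on 1 side of the early median, up to 8 genotype differences in each direction, and up to 3 called genes per list and direction, passing over predicted genes and pseudogenes. The members and lists were chosen with earlier results of these data known. Positions and overlaps came from GENCODE vM21 and promoters from RefSeq. Of 43 genes looked up, 21 overlap another gene, and only some of these overlaps are given in the text. Alternatives were DESeq2 1.42.0, limma 3.58.1 on rlog values, other filters and samples, thinned counts, each late set, a replicate block and leaving out each KO embryo. The model was tested on simulated data.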

Additional observations from a re-analysis of the deposited data

Results flagged for a closer look

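Of 92 groups of 8 values examined, 9 had 1 embryo that passed Dixon's 95% limit. The measure was the embryo's gap to its neighbour, divided by the range of the group. For independent groups of normally distributed values chance alone gives about 1 in 20. Most groups here were CPM values without a log, and groups share embryos, so that rate need not hold. In late KO ICMs, embryo 1-1 was highest for Egr1 (531 CPM against 230 CPM in the next, ratio 0.62), H1f0 (247 against 91.8 CPM, ratio 0.701) and Zfp821 (61.5 against 33.04 CPM, ratio 0.606). Embryo 1-5 was highest for Cited1 (46.9 against 23.1 CPM, ratio 0.565) and embryo 1-3 for Sp110 (79.5 against 29.9 CPM, ratio 0.726). Embryo 2-6 was highest for Lama1 (199 against 28.8 CPM, ratio 0.866) and embryo 2-8 for Lysmd3 (35.4 against 22.9 CPM, ratio 0.606). In early KO ICMs, embryo 17 was highest for Lrp2 (141 against 76.1 CPM, ratio 0.621), and embryo 11 for the trophectoderm marker sum (2104 against 890 CPM, ratio 0.749).

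The stage change differed between genotypes for 6 genes by the interaction test. The KO minus Ctrl difference on the log2 scale was 2.02 for Pemt, 2.00 for Gpd1l, 1.94 for Ankzf1, 1.18 for Gemin5, 1.12 for Xrcc1 and -1.05 for Rbbp5, each at an adjusted p of 0.0394.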

How the results depend on the processing

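The 150 genes called in Sox2-KO ICMs became 73 with counts thinned to the lowest total, 39 with limma on rlog values and 632 without a fold minimum, and 104 to 166 on leaving out 1 KO embryo. For Ctrl ICMs the 407 became 240, 156 and 1013 under the same alternatives, 170 with late set 1 alone, and 162 without the 5 embryos whose trophectoderm markers summed to over 1500 CPM, an alternative chosen after seeing the data. The 6 genotype differences became 41 with DESeq2, 3 with the Sox2-line ICMs alone, 0 thinned, 10 with limma, 1 with late set 1 (none of the 6), 20 with late set 2 (1 of the 6), 0 without the 5 embryos, and 0 to 12 on leaving out 1 KO embryo. At an unadjusted p below 0.05, 1346 to 1605 genes passed in the leave-one-out fits. The 31 stage genes became 15 thinned, 9 with limma, 12 with late set 2, 14 without the 5 embryos, 189 without a fold minimum and 18 to 34 on leaving out 1 KO embryo. The Oct4 Ctrl stage genes were called anew in each of these alternatives. Without a fold minimum there were 4560 of them in place of 2187. With the 100 stage genes of largest change, the shift of the stage score became 1.21 in Ctrl and 0.301 in KO ICMs. The cause was not tested. The split of KO calls was 95 higher and 55 lower, 58 and 85 with late set 2, and 271 and 361 without a fold minimum.

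Of 34 named genes called in KO ICMs, 7 were called in all 27 alternatives run (Egr1, Txnip, Dipk2a, Foxn2, Ckb, Tasor2 and Zbtb11), 27 lost the call in at least 1, and none changed sign. Embryo numbers shared between KO and Ctrl ICMs were not taken to pair them, since 5 of 8 pairs and not all had a correlation of deviations over 0.1 (-0.0896 to 0.287). In 4 of 8 the KO embryo correlated best with its own number, a hint from the data and not from the design. With the number as a replicate block 13 differences were called, none of them among the 6, and 0 for the same embryos without it. Genes of few UMIs are limited by depth.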

Other observations

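Gm11942, a processed pseudogene (chr4:32964888-32965232, plus strand, mm10), was noticed after its values were seen, and the naming rule passes over such genes. Of 96 embryos, 47 were over 100 CPM, 1 of them at 110 CPM (an Oct4-KO morula) and the rest at 869 CPM or more, and the others reached at most 43.6 CPM. No early KO ICM was over 100 CPM (3.26 to 18.3 CPM), while 5 of 8 late KO ICMs stood at 1273 to 2486 CPM and the other 3 at 11.01 to 24.1 CPM. All 8 Sox2-KO morulae were high (869 to 1999 CPM), as were 3 of 8 early and 4 of 8 late Ctrl ICMs. Gm5575, another processed pseudogene (chr5:24209327-24209724, minus strand), was over 100 CPM in 37 of 96 embryos, in 0 of 8 early and 2 of 8 late KO ICMs. Reads of a processed pseudogene can be shared with its parent gene, and so its level is uncertain.

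Txnip, which rose in KO ICMs, was also called higher in the late ICMs of Oct4 Ctrl embryos (3.71 ± 0.56, adjusted p = 7.4e-08), from means of 2.20 to 30.4 CPM. Jun moved in opposite directions in these groups: 1.22 in Sox2-KO ICMs and -1.12 ± 0.44 in Oct4 Ctrl ICMs (adjusted p = 0.0413), and the difference between them was not tested.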
